A study of Mus musculus with 10 samples.

Results

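The 7 genes described here encode the CB1 cannabinoid receptor (Cnr1) and the enzymes that make or break down its lipid ligands: Dagla, Daglb, Napepld, Mgll, Abhd6 and Faah. They were measured in the amygdala of mice without neuropsin, a secreted serine protease encoded by Klk8, and of wild-type mice. On the exon arrays used, a probe set covers about 1 exon. The genes were represented by the 127 of 1256831 probe sets that carry exactly 1 symbol, that of a member, and no probe set that names several genes included a member. Averaged over the arrays, 121 of the 127 lay above 4.94 (log2), the median probe set. All 7 genes were therefore among the 16367 with a gene level, the mean log2 value of at least 3 such probe sets.

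The neuropsin-/- group comprised 5 arrays and the wild-type group (C57BL/6) another 5. All animals were 3 months old, and the knockout line had been crossed back to C57BL/6 for 12 generations. The design gives 15 animals per genotype and RNA of 3 animals on each array, which was read as 5 separate pools per genotype, so that the p-values measure the spread between pools. The comparison asks how gene expression in the amygdala differs when neuropsin is missing. The labels do not say which exons of Klk8 were removed, and the mutation is not described as limited to any cell type.

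Endocannabinoids are lipid messengers made on demand in the postsynaptic neuron that act backwards on CB1, a Gi/o-coupled receptor of axon terminals, to lower transmitter release. One ligand, 2-arachidonoylglycerol (2-AG), is made by the diacylglycerol lipases and hydrolysed mainly by monoacylglycerol lipase at the terminal and by Abhd6 at the postsynaptic side. The other, anandamide, is released from its phospholipid precursor by Napepld and hydrolysed by Faah. In the basolateral amygdala CB1 is known to be dense on terminals of cholecystokinin-containing interneurons, and the system is known for its part in stress responses and the extinction of fear.

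Stretches of 250 bases before the annotated start are shown for Mgll and Napepld, the pair of genes with the highest correlation within genotypes over all 10 arrays (though not without wild-type arrays 4 and 5), and for Abhd6, which had the largest difference between genotypes. The sequences are those of RefSeq (GRCm38.p6), where 6 of the 7 genes had a window. They lie at chr6:88724162-88724411 (plus strand, Mgll), chr5:21701623-21701872 (minus strand, Napepld) and chr14:8002638-8002887 (plus strand, Abhd6). Each ends at the base before an annotated start, is written 5′ to 3′ on the strand of the gene, and has its CG dinucleotides in capitals.
Mgll: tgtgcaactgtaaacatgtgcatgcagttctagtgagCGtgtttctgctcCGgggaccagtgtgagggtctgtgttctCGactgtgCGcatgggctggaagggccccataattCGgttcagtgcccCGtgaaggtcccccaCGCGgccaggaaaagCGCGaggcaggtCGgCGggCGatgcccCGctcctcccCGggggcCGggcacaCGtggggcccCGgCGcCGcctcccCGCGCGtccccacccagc
Napepld: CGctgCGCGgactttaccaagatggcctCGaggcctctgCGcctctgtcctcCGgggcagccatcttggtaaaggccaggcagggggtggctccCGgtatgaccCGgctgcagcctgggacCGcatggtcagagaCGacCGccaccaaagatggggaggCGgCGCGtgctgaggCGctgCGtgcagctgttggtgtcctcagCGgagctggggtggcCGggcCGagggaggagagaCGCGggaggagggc
Abhd6: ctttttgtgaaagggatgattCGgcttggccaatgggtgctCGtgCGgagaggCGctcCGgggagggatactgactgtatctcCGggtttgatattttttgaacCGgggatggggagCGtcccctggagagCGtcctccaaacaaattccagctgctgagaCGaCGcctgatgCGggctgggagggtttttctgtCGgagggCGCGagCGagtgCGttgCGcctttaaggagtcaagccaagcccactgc
The windows held 23 CG dinucleotides (Mgll), 21 (Napepld) and 18 (Abhd6), against a median of 6 over 32851 windows of the same length. As many or more were found in 13.3%, 16.3% and 21.7% of all windows for these 3 counts. None of the 3 windows held the GC box GGGCGG on either strand, which 32.74% of all windows held. The same was true of the TATA motif TATAAA (12.37% of all windows) and of the cyclic AMP response element TGACGTCA (1.55%). Mgll and Abhd6 each have another annotated start with a window of its own, and there GGGCGG was found in both. No measurement of binding or methylation was made here, and the windows are given as context only.

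Before the genes themselves, the arrays need a few words. Across genes, which are not independent replicates, pairs of arrays had correlations of 0.958 to 0.987. Klk8 lay at 5.83 ± 0.28 in knockout arrays and 6.22 ± 0.28 in wild-type arrays (SD, n = 5 each), with overlapping groups, and it did not pass (difference -0.39, limma adjusted p = 0.693). Wild-type arrays 4 and 5 stood apart from the rest, with first principal component scores of 20.5 and 23.5, against -14.2 to 7.45 for the others. The scores followed the replicate number in both genotypes, though. Arrays 1 and 3 were at -10.3 and -11.7 in knockout and -14.2 and -13.4 in wild type. Knockout array 2 was at -2.43 and wild-type array 2 at -2.54, and knockout arrays 4 and 5 at 7.45 and 3.14. Leaving out wild-type arrays 4 and 5, as done below, keeps knockout arrays 4 and 5 and unbalances the numbers between genotypes. Of the basolateral amygdala markers 7 of 7 had a gene level, with a mean of 7.84 to 8.05 in knockout and 7.67 to 7.90 in wild-type arrays. So had 8 of 8 choroid plexus and 12 of 14 hypothalamus markers, and these counts do not show where the dissection lay. In dissected tissue, fewer cells of a type and less RNA per cell cannot be told apart.

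None of the 7 genes passed at the gene level, which does not show that they were unchanged. The limma adjusted p-values over 16367 genes were 0.693 or more, and 0.0244% of all genes passed the threshold of 0.05. In 6 of the 7 genes the knockout mean was higher, with a median difference of 0.088 on the log2 scale over the 7, against -0.0019 over all genes, 49.3% of which were higher in the knockout. The 95% confidence intervals of the 7 differences, not adjusted for the number of genes, reached from 0.878-fold (Napepld) to 1.31-fold (Abhd6). At an unadjusted p under 0.05 there were 2 members, Faah and Abhd6, both higher, where 6.98% of all genes met that mark 2.84% with a higher and 4.14% with a lower level in the knockout. The plot of gene levels by array shows these values.

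**Figure D1:**
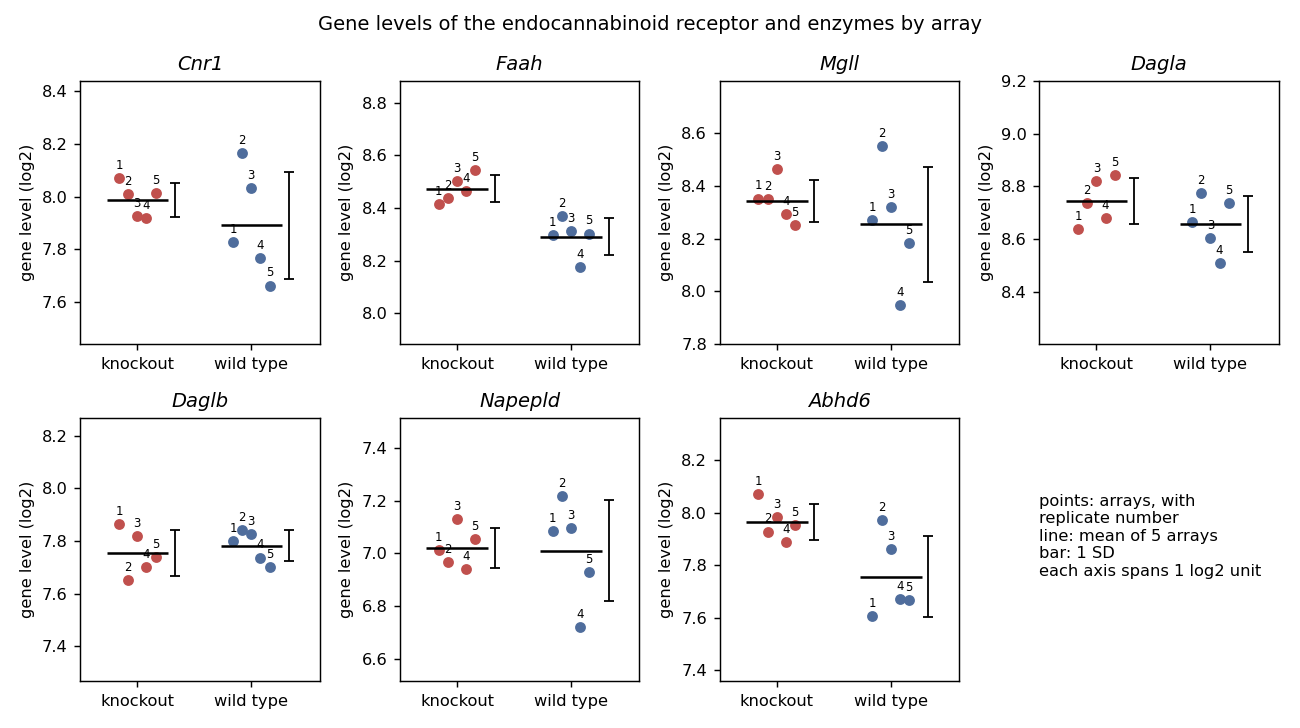
Gene level (mean log2 value of the probe sets of a gene) of the 7 genes on each array, knockout left of wild type. Points are arrays with their replicate numbers, lines are means and bars 1 SD of 5 arrays, and each axis spans 1 log2 unit. Only for Faah do the knockout arrays, at 8.42 to 8.54, all lie above the wild-type arrays, at 8.17 to 8.37.

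The receptor gene Cnr1 did not differ beyond the spread of the arrays. Its level over 12 probe sets was 8.07, 8.01, 7.93, 7.92 and 8.01 on knockout arrays 1 to 5, against 7.83, 8.17, 8.03, 7.77 and 7.66 on wild-type arrays 1 to 5. The knockout arrays lay close together inside the range of the wild-type arrays, which held both the highest and the lowest value. The means were 7.99 ± 0.064 in knockout and 7.89 ± 0.20 in wild-type arrays (SD, n = 5 each), a difference of 0.098 with a standard error (SE) of 0.095 (limma adjusted p = 0.858). Without wild-type arrays 4 and 5, the 2 lowest, the gene Cnr1 differed by -0.020 (adjusted p = 0.953). The median difference over all genes was then -0.048.

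Of the enzymes that make 2-AG, Dagla, the lipase known to supply most 2-AG for retrograde signalling in the adult brain, stood at 8.64, 8.74, 8.82, 8.68 and 8.84 on knockout arrays 1 to 5. On wild-type arrays 1 to 5 it stood at 8.67, 8.77, 8.60, 8.51 and 8.74. The groups overlapped, and the difference was 0.086 (SE 0.076, limma adjusted p = 0.845). With the median over the 22 probe sets of Dagla in place of the mean it was 0.00030. Daglb, the second diacylglycerol lipase, which is known from microglia and other cells, had the lowest difference of the 7, at -0.027 (SE 0.070, adjusted p = 0.953). It ranged from 7.65 to 7.87 in knockout and from 7.70 to 7.84 in wild-type arrays over 17 probe sets, so that the wild-type range lay inside that of the knockout.

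Of the enzymes that break down 2-AG, Abhd6 had the largest difference of the 7 genes. It stood at 8.07, 7.93, 7.98, 7.89 and 7.95 on knockout arrays 1 to 5, against 7.61, 7.97, 7.86, 7.67 and 7.67 on wild-type arrays 1 to 5. All knockout arrays lay above 4 of the wild-type arrays apart from wild-type array 2, which lay among them. The means were 7.96 ± 0.068 in knockout and 7.76 ± 0.15 in wild-type arrays (SD, n = 5 each), a difference of 0.21 (SE 0.083) or 1.16-fold, with a 95% interval of 1.02 to 1.31-fold. Abhd6 did not pass (limma unadjusted p = 0.0251, adjusted p = 0.693). The difference was 0.36 with the median over its 16 probe sets and 0.084 with the mean of the hypothalamus markers as a covariate, and passed in neither. With that covariate the median difference over all genes was 0.091.

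Mgll, monoacylglycerol lipase, is the main enzyme of 2-AG breakdown in the brain. Its level over 20 probe sets was 8.35, 8.35, 8.46, 8.29 and 8.25 on knockout arrays 1 to 5, against 8.27, 8.55, 8.32, 7.95 and 8.18 on wild-type arrays 1 to 5. As for Cnr1, the knockout values lay inside the wild-type range, of which array 2 was the top and array 4 the bottom. The difference was 0.088 (SE 0.099, limma adjusted p = 0.875), and without wild-type array 4 the gene Mgll differed by 0.011. The median difference over all genes without that array was -0.022.

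Of the enzymes of anandamide, Faah, fatty acid amide hydrolase, was the gene whose groups did not overlap. It stood at 8.42, 8.44, 8.50, 8.47 and 8.54 on knockout arrays 1 to 5, against 8.30, 8.37, 8.31, 8.17 and 8.30 on wild-type arrays 1 to 5. Every knockout array was above every wild-type array, a separation upward that 0.923% of all genes showed. The means were 8.47 ± 0.052 in knockout and 8.29 ± 0.071 in wild-type arrays (SD, n = 5 each), a difference of 0.18 (SE 0.068) or 1.13-fold, with a 95% interval of 1.03 to 1.25-fold. Faah did not pass either (limma unadjusted p = 0.0175, adjusted p = 0.693). Its difference stayed between 0.11 and 0.25 in 26 other settings of the analysis, with adjusted p-values of 0.231 to 0.957.

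Napepld, the phospholipase D that releases anandamide and related ethanolamides, differed by 0.011 (SE 0.092, limma adjusted p = 0.988) over 12 probe sets. It ranged from 6.94 to 7.13 in knockout and from 6.72 to 7.22 in wild-type arrays. Wild-type array 4 was the lowest and wild-type array 2 the highest, as for Mgll.

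The genes differed in how far they varied between arrays of 1 genotype. The SD within genotypes was 0.062 for Faah and 0.075 for Daglb, against 0.15 for the median gene of all 16367. It was 0.15 for Cnr1 and Napepld, 0.16 for Mgll, 0.12 for Abhd6 and 0.097 for Dagla. For each gene but Daglb the SD was larger in wild-type arrays: Mgll had 0.079 in knockout and 0.22 in wild-type arrays and Napepld had 0.076 in knockout and 0.19 in wild-type arrays (SD, n = 5 each). The difference in spread was not tested.

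With all probe sets of a gene in the mean and no intensity filter, the exact two-sided permutation of the 10 arrays gave p = 0.0159 for Faah (24 probe sets, difference 0.16, where wild-type array 2, at 8.02, was above the lowest knockout array) and p = 0.0317 for Abhd6 (17 probe sets, difference 0.22). The other 5 genes had exact permutation p-values of 0.198 to 0.746. These p-values are not adjusted for the 7 tests, and 0.00794 is the smallest that 5 arrays against 5 allow. Without wild-type arrays 4 and 5 the exact permutation p of Abhd6 was 0.0714.

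Single probe sets gave no call either: none of the 121 tested passed over 628415 probe sets (limma, smallest adjusted p = 0.806), of which 0.00239% passed. At an unadjusted p under 0.05 there were 9, 7 higher and 2 lower in the knockout, where 5.97% of all probe sets met that mark, 3.33% higher and 2.64% lower. Of the 121, 87 were higher in the knockout (71.9%), against 50.3% of all probe sets tested. Probe sets of 1 gene share its RNA and are not independent. The share was 19 of 22 for Faah, 14 of 16 for Abhd6, 10 of 12 for Cnr1, 17 of 22 for Dagla and 14 of 20 for Mgll. It was 6 of 12 for Napepld and 7 of 17 for Daglb. A share as high as that of Faah was found in 4.86% of all genes and one as high as that of Abhd6 in 4.55%.

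**Figure D2:**
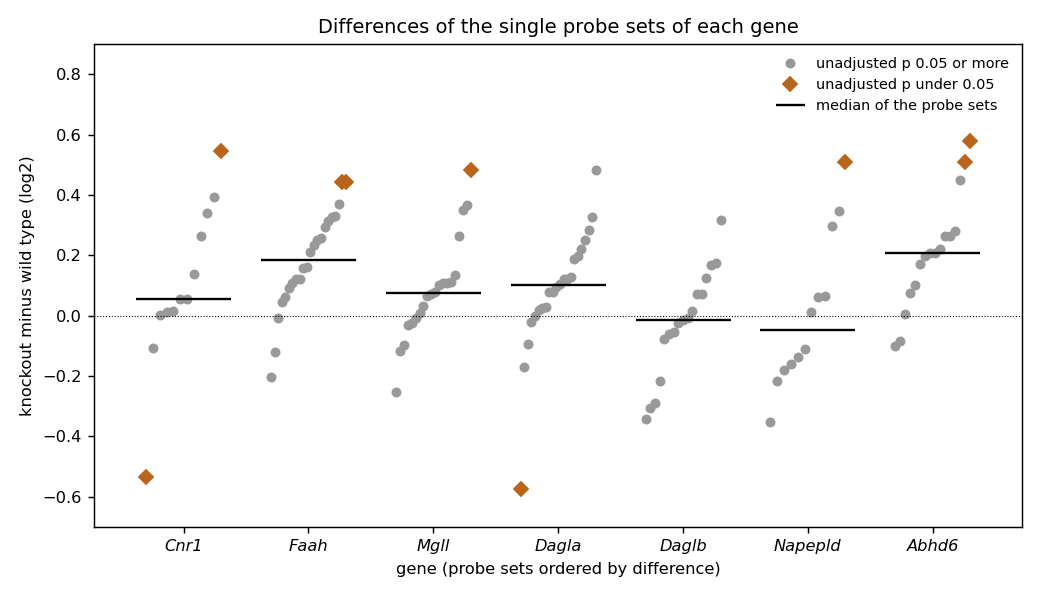
Difference (knockout minus wild type, log2) of each of the 121 probe sets above the intensity filter, by gene. Diamonds mark the 9 with an unadjusted p under 0.05, none of which passed after adjustment, and lines are medians. The probe sets of Faah and Abhd6 lie mostly above 0, and those of Cnr1 and Dagla include 1 low probe set each.

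Faah probe set 4736914 had the smallest p of the 121. It stood at 8.68, 8.44, 8.63, 8.23 and 8.36 on knockout arrays 1 to 5, against 8.13, 8.14, 8.15, 7.78 and 7.95 on wild-type arrays 1 to 5. The groups did not overlap, as in 1.1% of all probe sets (0.693% higher and 0.409% lower), and the difference was 0.44 (SE 0.15, limma unadjusted p = 0.0121, adjusted p = 0.806). Faah probe set 4421709 differed by 0.44 too (SE 0.19), with overlapping groups. Both Abhd6 probe sets at this mark were higher in the knockout, 5344866 by 0.51 (SE 0.20) and 5586322 by 0.58 (SE 0.26). Their wild-type means were 7.71 and 6.57. The Abhd6 probe sets of highest level, with wild-type means from 8.89 to 9.73, differed by only -0.10 to 0.21 (grouped after their values were seen). In probe set 5344866, wild-type array 1 at 7.11 was the lowest of 10 while wild-type array 2 at 8.29 was above 4 of the knockout arrays.

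In Cnr1, whose protein is encoded by a single exon, 2 probe sets went opposite ways. Probe set 5562100 stood at 5.22, 5.63, 5.48, 5.54 and 5.88 on knockout arrays 1 to 5, against 5.69, 6.75, 6.31, 5.82 and 5.87 on wild-type arrays 1 to 5, a difference of -0.54 (SE 0.21, limma adjusted p = 0.826). Probe set 5107360 differed by 0.55 (SE 0.25, adjusted p = 0.837). In Dagla, probe set 4442253 was at 8.29 ± 0.42 in knockout and 8.87 ± 0.32 in wild-type arrays (SD, n = 5 each), a difference of -0.58 (SE 0.22), while 17 of the 22 probe sets of that gene were higher in the knockout. Mgll probe set 4551635 differed by 0.48 (SE 0.22) and Napepld probe set 5452994 by 0.51 (SE 0.18), and in the Napepld probe set all knockout arrays lay above all wild-type arrays.

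Relative use of exons, tested on each probe set minus the mean of the others of its gene, passed in none of the 7 genes and in 0.0367% of all genes (limma with the Simes p per gene, Benjamini-Hochberg adjusted). Of the 7, only Cnr1 had an unadjusted Simes p under 0.05, a mark that 5.42% of all genes met. Its leading probe set, 5562100, was at -2.66 ± 0.28 relative to the rest of the gene in knockout arrays and at -1.97 ± 0.29 in wild-type arrays (SD, n = 5 each). The difference was -0.69 (SE 0.17, Simes adjusted p = 0.858). The adjusted Simes p-values of the other 6 genes were 0.919 to 1.00.

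Other genes of the system were followed in 3 lists. None of their 46 measured genes passed over all genes (limma, smallest adjusted p = 0.361), and 8 had an unadjusted p under 0.05, 7 higher and 1 lower, where 6.98% of all genes met that mark (2.84% higher and 4.14% lower). The counts of higher genes below stand beside 49.3% of all genes. The list of other endocannabinoid genes had 17 of 19 measured, 10 higher and 7 lower in the knockout, with a median difference of 0.061. The list of Gq-coupled receptors and phospholipase C beta, which lead to 2-AG synthesis, also held Gnaq, Gna11, Homer1 and Camk2a. Not all of its genes promote that synthesis. It had 10 of 11 measured, 7 higher and 3 lower, with a median of 0.074. The list of CB1 effectors held G proteins, adenylyl cyclases, channels and release proteins. It also held the kinase gene Grk3 and the arrestin genes Arrb1 and Arrb2, so not all of its genes carry the signal of the receptor. This list had 19 of 19 measured, 15 higher and 4 lower, with a median of 0.082. The forest plot of gene-level differences gives them all.

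**Figure D3:**
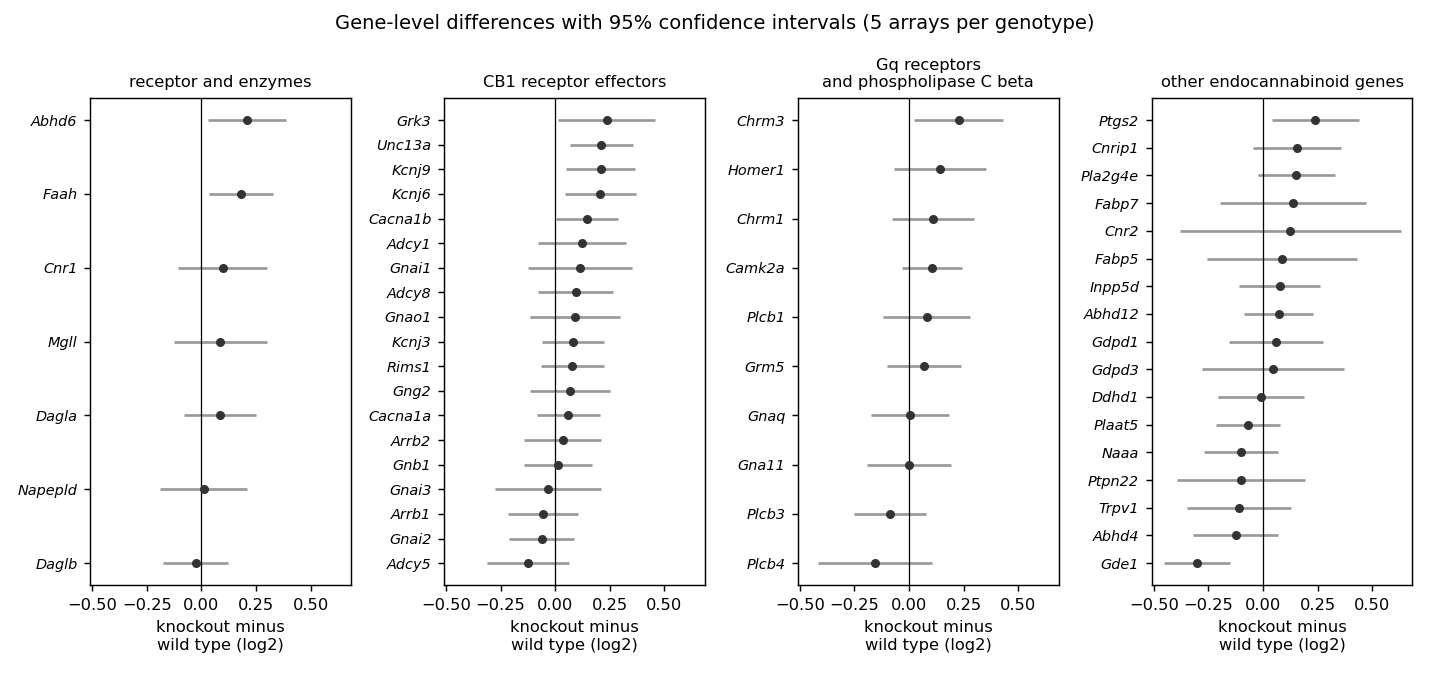
Gene-level difference (knockout minus wild type, log2) with its unadjusted 95% confidence interval for the 7 genes and the measured genes of the 3 lists, from 5 arrays per genotype. No gene shown passed after adjustment over all genes, and Gde1, at -0.30, lies farthest below 0.

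Gde1, a glycerophosphodiesterase of another route to anandamide, had the smallest p of all these genes. It stood at 8.92, 8.99, 9.03, 9.05 and 8.87 on knockout arrays 1 to 5, against 9.34, 9.37, 9.26, 9.20 and 9.21 on wild-type arrays 1 to 5. All knockout arrays lay below all wild-type arrays, as in 0.623% of all genes. The difference was -0.30 (SE 0.071) or 0.810-fold, with a 95% interval of 0.730 to 0.900-fold, and did not pass (limma unadjusted p = 0.000728, adjusted p = 0.361). Gde1 lies on chromosome 7, as does Klk8. Their distance was not determined here, and whether Gde1 lies in a chromosome segment carried along with the mutation was not tested. An effect of the lost protease and one of such a segment cannot be told apart. With the mean of the hypothalamus markers as a covariate Gde1 differed by -0.15, where the median over all genes was 0.091.

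In the same list Ptgs2, cyclooxygenase 2, which can oxidise endocannabinoids, was at 6.80 ± 0.11 in knockout and 6.56 ± 0.18 in wild-type arrays (SD, n = 5 each), a difference of 0.24 (SE 0.093, limma adjusted p = 0.693). Pla2g4e, an N-acyltransferase that makes the precursor of anandamide, differed by 0.15 (SE 0.082) and Cnrip1, a protein that binds the tail of CB1, by 0.15 (SE 0.094). Cnr2, the CB2 receptor known from immune cells, rested on 4 probe sets and was measured least precisely, with a difference of 0.13 and an SE of 0.24 (Cnr2 was chosen after its values were seen).

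Upstream of 2-AG synthesis, the muscarinic receptor gene Chrm3 was at 7.92 ± 0.15 in knockout and 7.69 ± 0.15 in wild-type arrays (SD, n = 5 each), a difference of 0.23 (SE 0.095, limma adjusted p = 0.693). Camk2a, a kinase known to inhibit the Dagla protein, differed by 0.11 (SE 0.064), the scaffold gene Homer1 by 0.14 (SE 0.098) and Plcb4 by -0.16 (SE 0.12). Without wild-type arrays 4 and 5 the gene Homer1 differed by -0.013, where the median over all genes was -0.048.

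Downstream of CB1, Unc13a, a priming factor of synaptic vesicles, stood at 9.16, 9.24, 9.19, 9.25 and 9.21 on knockout arrays 1 to 5, against 9.09, 8.91, 9.02, 8.94 and 9.05 on wild-type arrays 1 to 5. The groups did not overlap, and the difference was 0.21 (SE 0.067, limma adjusted p = 0.644). Of the potassium channel subunits opened by Gi/o proteins, Kcnj9 differed by 0.21 (SE 0.074) and Kcnj6 by 0.21 (SE 0.075), while Kcnj3, given for comparison after its value was seen, differed by 0.082 (SE 0.065). Grk3, a kinase that desensitises receptors such as CB1, differed by 0.24 (SE 0.10). In Unc13a, Kcnj9 and Cacna1b, the gene of the N-type calcium channel (0.14, SE 0.066, named after its values were seen), all knockout arrays lay above all wild-type arrays, as in 0.923% of all genes.

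Across arrays, the 7 genes varied in part together, and these correlations describe 10 arrays without a test. With each genotype centred on its own mean, the correlation was above 0 in all 21 pairs of genes, from 0.019 (Dagla and Daglb) to 0.92 (Mgll and Napepld). It was 0.88 for Faah and Dagla and 0.87 for Cnr1 and Abhd6, and 0.38 for Faah and Abhd6. Without wild-type arrays 4 and 5 these 4 values became 0.73 (Mgll and Napepld), 0.87 (Faah and Dagla), 0.93 (Cnr1 and Abhd6) and 0.21 (Faah and Abhd6), and 20 of the 21 pairs were above 0. All genes of an array share its pool of animals, its dissection and its hybridization. The share of other gene pairs with a correlation above 0 was not determined here, so the count does not set these 7 genes apart.

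The levels also moved with markers of the cells that a dissection can hold, as the heat map of genes and marker lists shows. Markers of excitatory neurons, such as the vesicular glutamate transporter Slc17a7 (0.24, SE 0.086), were higher in the knockout in 5 of 7 genes, with a list mean of -0.0092 to 0.11 in knockout and -0.21 to 0.038 in wild-type arrays after each gene was centred over the 10 arrays. Within genotypes, this list mean correlated with Napepld at 0.90, Faah at 0.88, Mgll at 0.86 and Dagla at 0.82, and with Cnr1 at 0.42, Abhd6 at 0.38 and Daglb at 0.26. With it as a covariate, a setting chosen after seeing the data, Faah differed by 0.11 (adjusted p = 0.819), Abhd6 by 0.15 (adjusted p = 0.819) and Cnr1 by 0.018. In the same fit Dagla differed by -0.015, Mgll by -0.090 and Napepld by -0.16, and the median over all genes was -0.046.

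**Figure D4:**
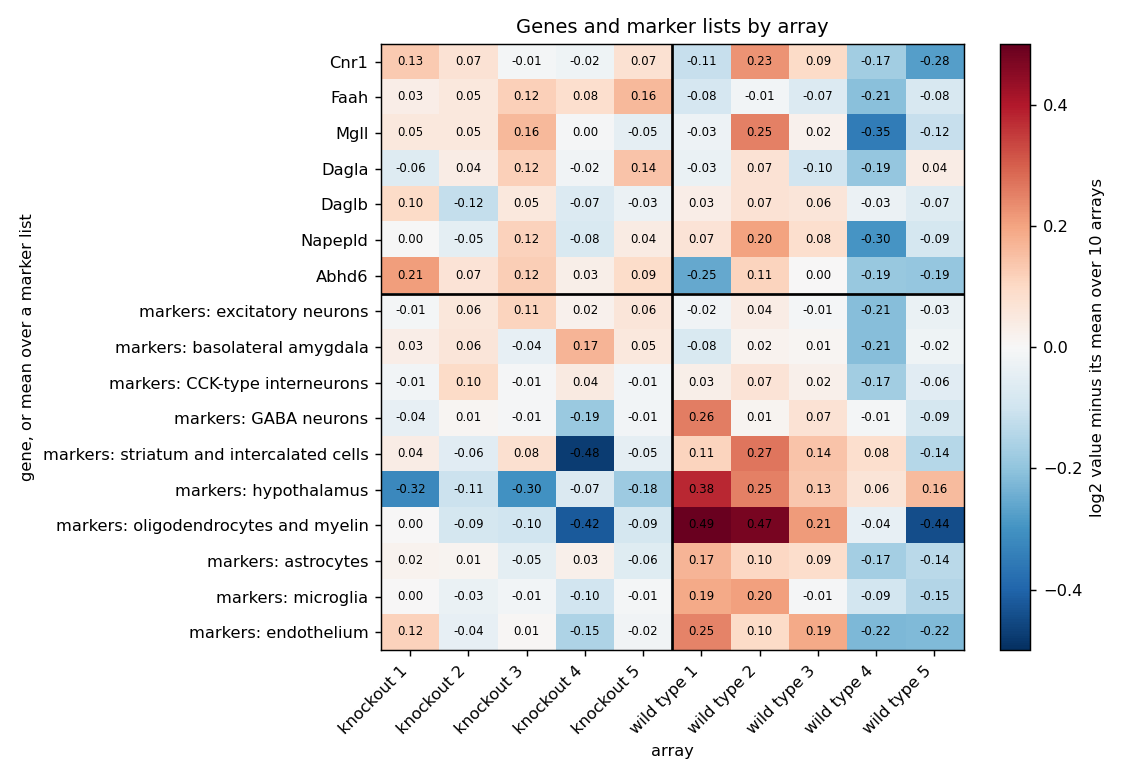
Log2 value of the 7 genes (above the line) and mean over marker lists (below it) on each array, each gene centred on its mean over the 10 arrays, with knockout arrays on the left. Hypothalamus markers are at -0.32 to -0.072 in knockout and 0.064 to 0.38 in wild-type arrays, and wild-type array 4 is the lowest for Faah, Mgll, Dagla and Napepld and for excitatory neuron markers.

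Cnr1 followed several other lists more closely than that of excitatory neurons. Within genotypes it correlated at 0.73 with oligodendrocyte and myelin markers, at 0.67 with microglia, 0.63 with endothelium and 0.61 with astrocyte markers, and at 0.60 with markers of the striatum and intercalated cells. These lists did not set Cnr1 apart. Napepld correlated at 0.65 with myelin, 0.75 with microglia, 0.75 with endothelium and 0.70 with astrocyte markers. For Mgll the values were 0.56, 0.69, 0.61 and 0.68. Myelin markers had a list mean of -0.42 to 0.0020 in knockout and -0.44 to 0.49 in wild-type arrays, and 11 of 11 genes were lower in the knockout with a median of -0.28, with the smallest p for Fa2h (-0.33, SE 0.13) and Cldn11 (-0.28, SE 0.11). Striatal markers had a list mean of -0.48 to 0.079 in knockout and -0.14 to 0.27 in wild-type arrays, with 11 of 12 lower and a median of -0.19. With the myelin mean as a covariate Cnr1 differed by 0.20 (adjusted p = 0.263) and with the striatal mean by 0.19 (adjusted p = 0.483). The median difference over all genes was 0.0435 in the myelin fit and 0.029 in the striatal fit. Markers of cholecystokinin-type interneurons, the cells known for CB1, were higher in 4 of 7 genes with a median of 0.071, and Cck itself differed by 0.21 (SE 0.074, adjusted p = 0.693). Their list mean, -0.014 to 0.096 in knockout and -0.17 to 0.068 in wild-type arrays, correlated with Cnr1 at 0.57 within genotypes. This did not set Cnr1 apart either, since the value was 0.78 for Mgll, 0.72 for Napepld and 0.56 for Faah. It was lower for Dagla (0.41), Abhd6 (0.34) and Daglb (0.086).

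Hypothalamus markers separated the genotypes, with 11 of 12 measured genes lower in the knockout and a median of -0.22, and Pmch (-1.88, SE 0.39, limma adjusted p = 0.270) and Oxt (-0.63, SE 0.16) had the smallest p. Over the 10 arrays their list mean correlated with Abhd6 at -0.72 and with Faah at -0.67, while within genotypes the values were -0.31 and 0.35. With this mean as a covariate Faah differed by 0.25 and Abhd6 by 0.084, with adjusted p-values of 0.957 and 0.966. The median gene of all differed by 0.091 in that fit. Since this list and the genotype moved together, the part of each cannot be told apart here. The part of the other marker lists in these differences was not tested beyond the covariate fits given.

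For each of the 7 genes the 3 named genes of most similar level over the 10 arrays, by Pearson correlation among 15306 genes, were as follows. Cnr1 was most like Pafah1b2 (0.99), St3gal5 (0.95) and Atrnl1 (0.95). Faah was most like Csmd1 (0.95), Lrfn2 (0.94) and Galnt18 (0.94), with lower values of 0.79, 0.79 and 0.77 within genotypes. All 3 were higher in the knockout mean, by 0.18 to 0.29. A choice over the arrays of both genotypes favours this shared direction. Dagla was most like Thy1 (0.96), Prrc2b (0.95) and B4galnt4 (0.92). These likenesses are the highest of many and rest on 10 arrays.

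Mgll was most like Kndc1 (0.97), Hcfc1 (0.96) and Tbc1d9 (0.96), and Napepld like Rasal2 (0.97), Bcl2l13 (0.97) and Ift46 (0.97). Abhd6 was most like Nyap1 (0.96), Sh3yl1 (0.95) and Zfp346 (0.95), with 0.93, 0.91 and 0.90 within genotypes. These were higher in the knockout by 0.15 to 0.17, a direction that the choice favours here too. Daglb, with the smallest likenesses of the 7, was most like Nxt2 (0.90), Wdyhv1 (0.90) and Fzd7 (0.90). Without wild-type arrays 4 and 5 the correlation with Cnr1 was 0.97 for Pafah1b2, 0.87 for St3gal5 and 0.89 for Atrnl1.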

How the data were processed

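Exon arrays (GeneChip Mouse Exon 1.0 ST) of 10 amygdala samples were analysed. Each deposited value is a log2 level of 1 probe set, which the authors obtained by RMA in Affymetrix Expression Console, per the submitters' processing notes. RMA corrects background, normalizes quantiles between arrays and summarises the probes of a probe set. Software versions and the genome build were not given in the sources used here. Gene names came from the platform annotation, with older symbols updated through RefSeq (GRCm38.p6), and 318760 probe sets had exactly 1 gene.

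Tested were the 628415 probe sets with a mean above 4.94, the median, and a gene level was the mean over at least 3 of them. The genotypes were compared in limma 3.58.1 under R 4.3.3 (lmFit and eBayes, no covariates, two-sided), with Benjamini-Hochberg adjustment over all genes or probe sets. Differences are knockout minus wild type. Members' means over all probe sets were tested by exact permutation. The scripts were tested on simulated data. The number of arrays limits the precision.

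The members and lists were chosen with earlier results of these data known. Named in the text are the 7 members, their probe sets with an unadjusted p under 0.05 or groups that do not overlap (up to 3 a gene), the 4 genes of smallest p in each pathway list, the 3 most alike genes per member, and 1 or 2 markers per list. The marker lists were CCK-type interneurons, GABA neurons, excitatory neurons, basolateral amygdala, striatum and intercalated cells, hypothalamus, astrocytes, oligodendrocytes and myelin, microglia, endothelium, choroid plexus and blood. Alternatives were other scalings, filters, summaries, variance priors, array weights, covariates, the replicate block and arrays left out.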

Additional observations from a re-analysis of the deposited data

Results flagged for a closer look

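A sample far from the others of its genotype was found in 3 of 58 groups of 5 arrays checked, about as many as chance gives, since chance flags about 1 in 20. For the probe set 5452994 of Napepld, knockout array 4 stood at 6.36, while the other knockout arrays lay between 5.91 and 5.97. For Kcnj6, wild-type array 3 stood at 7.19, while the other wild-type arrays lay between 6.91 and 6.93. For Plcb4, knockout array 3 stood at 7.61, while the other knockout arrays lay between 7.11 and 7.25.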

How the results depend on the processing

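No member passed at the gene level in any of 26 other settings, no member probe set in any of 22 and no member by exon use in any of 15. By exon use the adjusted Simes p depended on the setting. It fell as low as 0.0607 for Dagla and 0.348 for Cnr1, against 0.945 and 0.858 in the main fit. Faah and Abhd6 kept a higher knockout mean in all 26, and the cause of the moves below was not tested. At the gene level, the gene Napepld differed by -0.080 with the stricter intensity filter (the 75th percentile), -0.037 with array weights, -0.031 with the first principal component as a covariate, -0.11 without wild-type arrays 4 and 5, -0.16 with the excitatory marker mean and -0.062 to 0.063 with 1 array left out. Without wild-type arrays 4 and 5, which leaves 3 wild-type arrays, Cnr1 differed by -0.020, Mgll by -0.039 and Homer1 by -0.013. With the excitatory marker mean Mgll differed by -0.090 and Dagla by -0.015. Daglb differed by 0.021 with the striatal and 0.016 with the myelin marker mean.

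For the means over all probe sets, Daglb differed by 0.021 with the median, and without wild-type arrays 4 and 5 Cnr1 differed by -0.020, Mgll by -0.039, Napepld by -0.078 and Abhd6 by 0.20 (exact permutation p = 0.0714). With 1 array left out these means differed by 0.041 to 0.17 (Cnr1), 0.14 to 0.19 (Faah), 0.011 to 0.16 (Mgll), 0.048 to 0.11 (Dagla), -0.063 to -0.0064 (Daglb), -0.028 to 0.079 (Napepld) and 0.18 to 0.28 (Abhd6). With the replicate block, a paired sign-flip test that cannot go below 0.0625 with 5 pairs, Faah differed by 0.16 and Abhd6 by 0.22 (exact permutation p = 0.125 for both). The arrays were not treated as pairs, since the labels do not say that a number marks a shared batch or day. The correlation of same-numbered deviations from the genotype means was 0.082 for number 2, whose best wild-type partner was still number 2. It was 0.24 to 0.41 for the others, and 4 of 5 knockout arrays correlated best with their own number. With the first principal component scores, this is a hint from the data that the numbers may share something, which the main test does not take into account. At the gene level the replicate block left 3 genes passing and no member (limma adjusted p = 0.398 for Faah and 0.410 for Abhd6).

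Over the whole table, 4 genes passed, against 0 with the hypothalamus marker mean as a covariate, 8 with the first principal component, 2 with the myelin or the excitatory marker mean or at least 1 probe set per gene, and 2 to 6 with 1 array left out. Of all probe sets 15 passed, against 3 after quantile normalization again, 2 with no intensity filter, 66 with the stricter one, 0 with the replicate block, 3 without wild-type arrays 4 and 5, 102 with the trended and robust prior, 2 with the striatal, 4 with the myelin and 0 with the hypothalamus marker mean, and 2 to 9 with 1 array left out. By exon use 6 genes passed, against 276 with diffSplice, which shares 1 variance per gene, 2 with the replicate block, 2 without wild-type arrays 4 and 5, and 2 to 6 with 1 array left out.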

Other observations

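Marker lists not described above moved as follows, as values without a test of the list. GABA neuron markers were lower in the knockout in 6 of 7 genes (median -0.12), with Dlx6 at -0.21 (SE 0.094) and Gad2 at -0.19 (SE 0.11). Basolateral amygdala markers were higher in 5 of 7 (median 0.14), with Mef2c at 0.20 (SE 0.086) and Fezf2 at 0.30 (SE 0.13). Astrocyte markers were lower in 8 of 10 (median -0.029), with Slc1a3 at 0.16 (SE 0.087). Microglia markers were lower in 10 of 10 (median -0.047), with Cx3cr1 at -0.14 (SE 0.090), and endothelium markers in 5 of 6 (median -0.052), with Cdh5 at -0.12 (SE 0.10). Choroid plexus markers were lower in 8 of 8 (median -0.24), with Folr1 at -0.33 (SE 0.18). Blood markers had 3 of 8 genes measured, all lower. Of these only Hbb-b1 passed (-1.81, SE 0.20, limma adjusted p = 0.00315), and it rests on 3 probe sets and lies on chromosome 7, as does Klk8. Slc4a1, the blood marker of next smallest p, differed by -0.12 (SE 0.077, limma adjusted p = 0.765). Of the striatal markers, Rasd2 (-0.23, SE 0.084) and Penk (-0.32, SE 0.15) had the smallest p. None of the other markers passed.

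The 6 member probe sets below the intensity filter, 2 each of Faah and Napepld and 1 each of Daglb and Abhd6, averaged 1.94 to 4.79 in knockout and 1.70 to 4.72 in wild-type arrays, with overlapping groups in all 6.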
